A study of Mus musculus with 12 samples.

Results

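The contractile genes of smooth muscle and myofibroblasts were followed in cartilage progenitor pellets through a serial chondrogenic and osteogenic culture. The members are the 10 gene symbols Acta2, Tagln, Cnn1, Myh11, Myl9, Smtn, Lmod1, Actg2, Synpo2 and Myocd, given as a list of names, of 28244 genes in the deposited table. RNA was sequenced from 12 libraries, with 3 replicates for each of the time points D7, D8, D10 and D28. The cells came from the heads and condyles of femurs and tibiae of C57/BL6 pups that were 5 or 6 days old, and the labels name the source as murine mesenchymal progenitors. All pellets, the D7 control included, received 7 days of chondrogenic medium. D8, D10 and D28 pellets then had 1, 3 and 21 days of osteogenic medium, so that day in culture and medium change together after D7. No separate pellets were kept in chondrogenic medium to the later days among the libraries used here, and the labels do not say whether replicates are separate cultures or animals, so the p-values measure only the spread between these libraries.

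Smooth muscle cells contract when myosin light chain kinase phosphorylates the regulatory light chain of myosin, which then pulls on actin filaments. Myofibroblasts, the contractile fibroblasts of wounds and fibrosis, and pericytes and other mural cells of vessels take up part of the same gene programme, and transient expression of smooth muscle actin is also known in cultured mesenchymal progenitors and chondrocytes. The genes are classical targets of serum response factor (Srf), which binds CArG boxes in their promoters together with the coactivator myocardin (Myocd) or the actin-regulated coactivators Mrtfa and Mrtfb.

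Values are the log2 of an equalized count plus 1, as deposited, and a call means a limma adjusted p under 0.05 with a log2 fold change of at least 1. Read totals cannot be recovered from such values, and relative depth, taken from their lowest steps, ranged from 0.730 in D10 replicate 1 to 1.31 in D28 replicate 1. A level of 3 reads lies at 2.87 on the log2 scale in the shallowest library and lower in the others. Values of Acta2, Myl9, Smtn and Synpo2 stood above 5 in every library, whereas Tagln, Cnn1, Actg2 outside D8 and, at D10, Lmod1, Myocd and Myh11 were at few reads. All 10 genes passed the filter on low values, which was applied over all libraries. In bulk libraries, fewer cells of a type and less RNA per cell cannot be told apart.

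Promoter sequences were matched for 6 of the 10 genes in RefSeq (GRCm38.p6), namely Acta2, Cnn1, Myl9, Smtn, Lmod1 and Synpo2. The 250 bases before the RefSeq start of Acta2 (chr19:34255374-34255623, minus strand), Myl9 (chr2:156775214-156775463, plus strand) and Lmod1 (chr1:135324563-135324812, plus strand) are given 5′ to 3′, because these 3 genes moved together. The gene spans given further below are from GENCODE, and for these 3 genes they begin inside the windows shown. Part of each window therefore lies within the GENCODE span, and positions are counted from the RefSeq start. Capitals mark a CArG box, a CArG-like element, in which 1 base of the A/T core is a C or a G, or the TEAD motif CATTCC on either strand, which reads GGAATG on the reverse strand.
Acta2: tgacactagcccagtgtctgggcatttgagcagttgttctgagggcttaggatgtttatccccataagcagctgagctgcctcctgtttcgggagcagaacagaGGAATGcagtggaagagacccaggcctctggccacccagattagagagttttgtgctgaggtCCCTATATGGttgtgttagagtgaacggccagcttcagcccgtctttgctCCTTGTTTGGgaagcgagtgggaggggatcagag
Myl9: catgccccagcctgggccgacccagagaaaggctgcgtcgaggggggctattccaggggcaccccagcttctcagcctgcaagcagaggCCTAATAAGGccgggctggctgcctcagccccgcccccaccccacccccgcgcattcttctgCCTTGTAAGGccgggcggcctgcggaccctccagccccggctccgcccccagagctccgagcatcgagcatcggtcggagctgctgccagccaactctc
Lmod1: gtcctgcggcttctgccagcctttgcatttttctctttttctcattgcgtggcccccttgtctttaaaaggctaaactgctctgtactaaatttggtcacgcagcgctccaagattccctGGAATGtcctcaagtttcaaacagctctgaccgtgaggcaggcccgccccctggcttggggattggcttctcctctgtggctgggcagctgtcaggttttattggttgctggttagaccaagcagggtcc

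Acta2 held CArG-like elements at positions -84 and -34 from its RefSeq start and GGAATG at -146. Myl9 held a CArG box at -161 and a CArG-like element at -99, and Lmod1 held only GGAATG, at -130. The marked elements do not overlap one another. Among the 6 promoters a CArG box was found in 1, a CArG-like element in 2 and CATTCC on either strand in 3. The same searches, on both strands and in windows from 250 bases before to 50 after each start, found them in 1.63%, 8.50% and 14.7% of 32851 RefSeq promoters. These matches are a description of letters and were not tested as binding sites.

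The 10 genes did not follow a shared course. Acta2, Myl9 and Lmod1 fell at D10 and rose again by D28 above their D7 level, Myh11 rose steeply at D28, Synpo2 fell early and stayed low, and Smtn was high at every time point with a slow decline. Actg2 was highest at D8, and Tagln and Cnn1, which are among the most abundant transcripts of mature smooth muscle, were near the limit of detection throughout. The lowest mean was at D10 for 8 of the 10 genes, the exceptions being Tagln, lowest at D7, and Smtn, lowest at D28. In limma's F test over the 4 time points, 7 of the 10 passed, beside 64.6% of all 17674 genes tested, a share close to theirs.

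**Figure D1:**
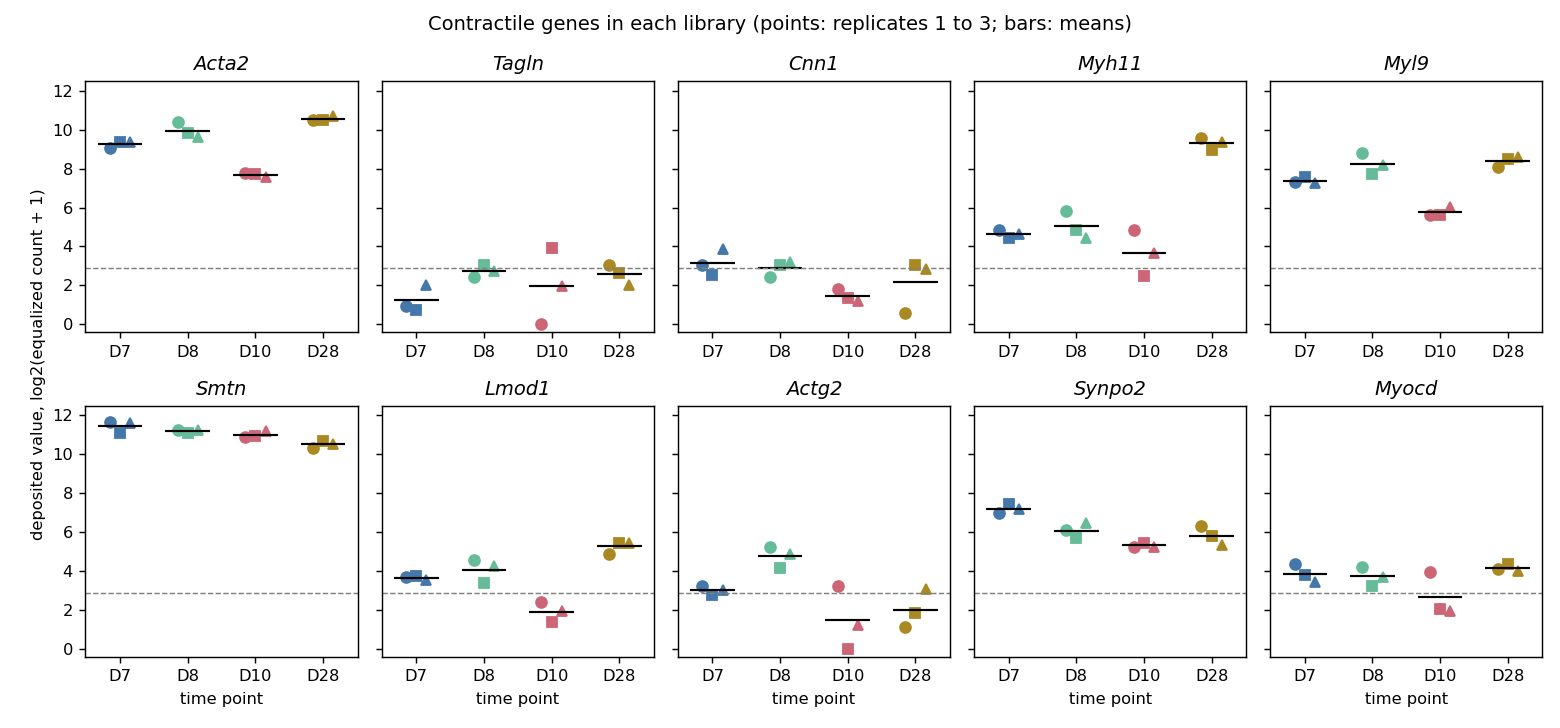
Deposited log2 values of the 10 contractile genes in each library, against time point; points are replicates 1 to 3, horizontal bars are means, and the dashed line is the highest 3-read level of any library, 2.87. Acta2, Myl9 and Lmod1 dip at D10, Myh11 stands apart at D28 (8.94 to 9.60), and Tagln and Cnn1 stay near the dashed line.

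Acta2, alpha smooth muscle actin and the usual marker of myofibroblasts, lies at chr19:34241090-34255590 (GRCm38, minus strand). It measured 9.06, 9.37 and 9.39 at D7 and 10.42, 9.83 and 9.61 at D8. At D10 it measured 7.79, 7.74 and 7.56, and at D28 10.52, 10.50 and 10.69. The 3 D10 libraries lay below all others and the 3 D28 libraries above all others, so that both extremes were separated from every other time point. The fall from D8 to D10 was 4.78-fold (log2 fold change -2.26, SE 0.17, adjusted p = 5.2e-07), and the rise from D10 to D28 was 7.34-fold (2.88, SE 0.17, adjusted p = 2.31e-09). At D28 Acta2 was 2.46-fold above D7 (1.30, SE 0.17, adjusted p = 2.21e-05). The D8 libraries were all above those of D7 by a mean of 0.68 (SE 0.17, adjusted p = 0.0101), which did not reach the fold required for a call. This difference was 0.45 without D8 replicate 1 (adjusted p = 0.0534) and 0.57 without D7 replicate 1 (adjusted p = 0.0562).

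Myl9, the regulatory light chain of smooth muscle myosin (chr2:156775420-156781658, plus strand), had a like course. It measured 7.33, 7.55 and 7.29 at D7, 8.78, 7.72 and 8.18 at D8, 5.64, 5.64 and 6.04 at D10 and 8.09, 8.51 and 8.60 at D28. The D10 values were again the lowest without overlap, while those of D8 and D28 overlapped and lay above those of D7. Myl9 fell 5.48-fold from D8 to D10 (-2.46, SE 0.24, adjusted p = 5.99e-06) and rose 6.19-fold from D10 to D28 (2.63, SE 0.24, adjusted p = 2.57e-07). The 2.02-fold excess of D28 over D7 (1.01, SE 0.24, adjusted p = 0.0036) lay at the fold threshold, and its call was lost without D7 replicate 1 or 3 or D28 replicate 2 or 3 (0.91 to 0.98). The difference of 0.84 between D8 and D7 (SE 0.24, adjusted p = 0.0213) became a call without D8 replicate 2 (1.09).

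Lmod1, leiomodin 1, which nucleates actin filaments in smooth muscle (chr1:135324807-135368065, plus strand), moved in the same way from a low level. It measured 3.69, 3.73 and 3.56 at D7, 4.57, 3.39 and 4.29 at D8, 2.44, 1.37 and 1.97 at D10 and 4.88, 5.46 and 5.46 at D28. The D10 values correspond to 2, 1 and 2 reads, and no library of another time point was as low. By reads corrected for depth, D10 was 6.15-fold below D7 (5 against 32 reads, 95% counting interval 2.38 to 20.2). D28 was 24.2-fold above D10 by the same measure (170 against 5 reads, 10.2 to 75.5). On the fitted log2 scale the fall from D7 to D10 was -1.74 (SE 0.43, adjusted p = 0.00411) and the excess of D28 over D7 was 1.61 (SE 0.43, adjusted p = 0.00767). With values under the 3-read level raised to it, the fall from D7 was -0.79 and no longer a call (adjusted p = 0.0507), while the fall from D8 (-1.21) and the rise to D28 (2.40) stayed calls.

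Myh11, the heavy chain of smooth muscle myosin and a marker of differentiated smooth muscle, had the largest change of the 10 genes (chr16:14194535-14291372, minus strand). It measured 4.86, 4.43 and 4.64 at D7, 5.85, 4.86 and 4.43 at D8, 4.87, 2.50 and 3.68 at D10 and 9.60, 8.94 and 9.39 at D28. Every D28 library was above every earlier library by more than 3 log2 units, while the 3 earlier time points overlapped. From D10 to D28 Myh11 rose 49.3-fold (5.62, SE 0.48, adjusted p = 1.33e-07) and from D7 to D28 25.4-fold (4.66, SE 0.48, adjusted p = 2.1e-06). Both rises passed in all 21 alternative settings, and the log2 rise from D10 was 6.22 without D10 replicate 1 and 5.03 without D10 replicate 2. The fall from D8 to D10 (-1.36, SE 0.48, adjusted p = 0.046) was a call with overlapping libraries, resting at D10 on 14, 3 and 8 reads, and was lost in 15 of the 21 settings, 10 of them among the 12 that leave out a library (-1.46 to -0.77). It was kept without D8 replicate 3 or D10 replicate 1. The difference from D7 to D10, -0.96 (SE 0.48, adjusted p = 0.129), became a call without D10 replicate 1 (-1.55).

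Smtn, smoothelin, which binds actin filaments in contractile smooth muscle, was the most evenly expressed of the genes (chr11:3517523-3540612, minus strand). It measured 11.67, 11.12 and 11.63 at D7, 11.26, 11.10 and 11.26 at D8, 10.88, 10.93 and 11.18 at D10 and 10.35, 10.67 and 10.53 at D28. The D28 libraries were below all others, and the earlier time points overlapped with their neighbours. The difference of D28 from D7, -0.96 (SE 0.14, adjusted p = 6.71e-05), was 1.94-fold and so just short of a call, which it became without D7 replicate 2 (-1.14) or D28 replicate 2 (-1.04). Of the exonic bases of Smtn, 16.3% overlap Gm11946 and 0.89% overlap Gm11947 on the opposite strand.

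Synpo2, synaptopodin 2 or myopodin, which binds actin and alpha-actinin at dense bodies and Z-discs (chr3:123076519-123236149, minus strand), fell within 1 day of osteogenic medium. It measured 6.97, 7.45 and 7.20 at D7, 6.10, 5.68 and 6.46 at D8, 5.27, 5.46 and 5.25 at D10 and 6.31, 5.81 and 5.36 at D28. All later libraries were below all D7 libraries. The difference from D7 was -1.13 at D8 (SE 0.28, adjusted p = 0.0101), -1.88 at D10 (SE 0.28, adjusted p = 7.54e-05) and -1.38 at D28 (SE 0.28, adjusted p = 0.0012). The D8 call was lost without D8 replicate 2 (-0.93). Between D10 and D28 the estimate was 0.50 (SE 0.28, adjusted p = 0.154), with overlapping libraries, so the return seen for Acta2, Myl9 and Lmod1 was not detected for Synpo2.

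Actg2, gamma smooth muscle actin of visceral muscle (chr6:83512905-83536265, minus strand), was highest at D8. It measured 3.26, 2.79 and 3.01 at D7, 5.26, 4.16 and 4.86 at D8, 3.26, 0 and 1.22 at D10 and 1.12, 1.84 and 3.07 at D28. The D8 values correspond to 34, 14 and 30 reads, those of D7 to 8, 6 and 5, those of D10 to 4, 0 and 1 and those of D28 to 2, 4 and 12. All D8 libraries were above all libraries of the other time points. The fall from D8 to D10 passed (-3.27, SE 0.71, adjusted p = 0.00312), whereas the estimate from D7 to D8, 1.74 (SE 0.71), did not (adjusted p = 0.0979). The size of the fall rests on the few D10 reads, being -4.15 without D10 replicate 1, -2.52 without D10 replicate 2 and -1.76 with values under the 3-read level raised to it, and it stayed a call in each. With low values raised the D8 estimate was 1.71 and passed (SE 0.25, adjusted p = 0.00232), and it passed at 1.74 by an unadjusted test. Without D10 replicate 1 it also passed at that size (adjusted p = 0.0362), and so did the difference from D7 to D10, at -2.41 in place of -1.53. No 59-base window of the transcripts of Actg2 or Acta2 was found exactly in a transcript of another gene. Windows with mismatches were not searched, and the part of reads assigned to the wrong actin was not tested.

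Tagln, transgelin or SM22-alpha, an actin-binding protein of smooth muscle and myofibroblasts (chr9:45929619-45936058, minus strand), was at the limit of detection. It measured 0.94, 0.74 and 2.03 at D7, 2.44, 3.06 and 2.74 at D8, 0, 3.91 and 1.97 at D10 and 3.07, 2.66 and 2.03 at D28, which corresponds to between 0 and 12 reads per library. The D8 libraries lay above those of D7, and the D10 libraries spanned the whole range. By reads corrected for depth, Tagln was 4.64-fold higher at D28 than at D7 (25 against 4 reads, 95% counting interval 1.60 to 18.3), but the fitted difference of 1.35 (SE 0.77) did not pass (adjusted p = 0.188). Of the 1988 exonic bases of Tagln, 1241 (62.4%) overlap the antisense gene Gm48529 and 108 (5.43%) overlap Pcsk7 on the opposite strand, whose means were between 9.01 and 9.23. The strand setting of the count is not given in the sources used here, and the part of these overlaps in the low values of Tagln was not tested.

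Cnn1, calponin 1, which binds actin and restrains myosin in smooth muscle (chr9:22099216-22109630, plus strand), was also at few reads. It measured 3.07, 2.52 and 3.87 at D7, 2.44, 3.06 and 3.20 at D8, 1.81, 1.37 and 1.22 at D10 and 0.58, 3.07 and 2.82 at D28. The D10 libraries had 1 read each and were below all those of D7 and D8, while D28 overlapped with every time point. By reads corrected for depth D10 was 7.04-fold below D7 (3 against 22 reads, 95% counting interval 2.12 to 36.8). The fitted difference of -1.69 (SE 0.63, adjusted p = 0.0423) was a call in 9 of 20 alternative settings and lost in the other 11, including those without D7 replicate 1 or 3, D8 replicate 2 or 3, or any replicate of D10. With values under the 3-read level raised to it, D10 was only 1.32-fold below D7, short of the fold for a call. Without D28 replicate 1 the rise from D10 to D28 passed (1.48 in place of 0.69), as did the fall from D8 to D10 (-1.43).

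Myocd, myocardin (chr11:65176561-65269989, minus strand), measured 4.35, 3.82 and 3.45 at D7, 4.22, 3.26 and 3.71 at D8, 3.98, 2.03 and 1.97 at D10 and 4.11, 4.38 and 4.00 at D28. Replicate 1 of D10 was within the range of the other time points, and replicates 2 and 3, at 2 reads each, were below it. The rise from D10 to D28 passed (1.51, SE 0.52, adjusted p = 0.0245) and was lost in 6 of 21 alternative settings, among them those without D10 replicate 2 (1.19), D10 replicate 3 (1.16) or D28 replicate 2 (1.40). Without D10 replicate 1 it was 2.16, and with low values raised 0.92. The fall from D7 to D10 (-1.21, SE 0.52, adjusted p = 0.0765) did not pass, and became a call without D10 replicate 1 (-1.87), as did the fall from D8 to D10 (-1.73 in place of -1.07). D28 and D7 differed by 0.29 (SE 0.52, adjusted p = 0.707).

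Comparison by comparison, calls among the 10 genes were as follows, and since the 5 comparisons share time points their counts are not independent. From D7 to D8, 0 were higher and 1 was lower (Synpo2), beside 3.23% and 3.81% of all genes tested. From D8 to D10, 5 fell (Acta2, Myl9, Lmod1, Myh11 and Actg2) and 0 rose, beside 5.58% and 4.08% of all genes, and the estimates of all 10 were below 0. From D7 to D10, 5 fell (Acta2, Myl9, Lmod1, Synpo2 and Cnn1) and 0 rose, beside 10.4% and 8.50%. From D10 to D28, 5 rose (Acta2, Myl9, Lmod1, Myh11 and Myocd) and 0 fell, beside 13.8% and 13.7%. From D7 to D28, 4 rose (Acta2, Myl9, Lmod1 and Myh11) and 1 fell (Synpo2), beside 8.63% and 8.66%. The median log2 fold change of the 10 genes was -1.40 from D8 to D10 and 1.10 from D10 to D28, where the medians of all genes tested were 0 and -0.10.

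**Figure D2:**
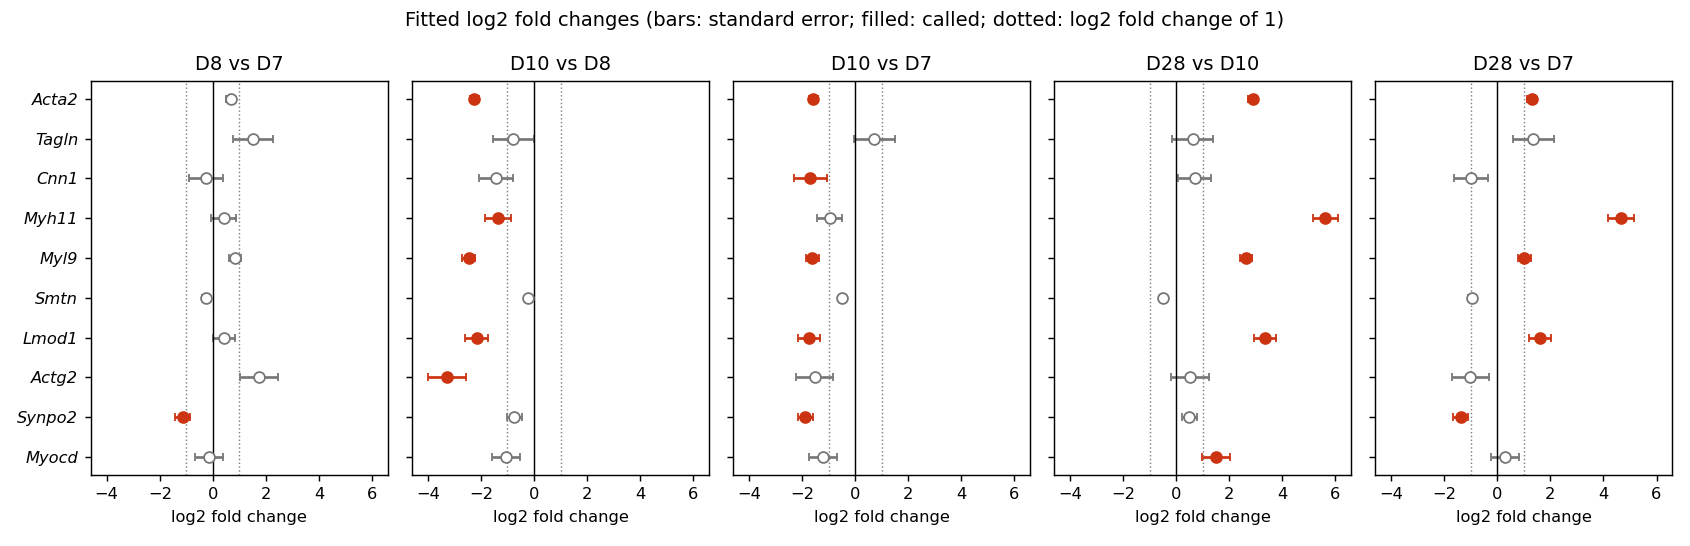
Fitted log2 fold changes (horizontal axis) of the 10 genes (vertical axis) in 5 comparisons; bars are standard errors, filled points are calls and dotted lines mark a log2 fold change of 1 in either direction. All estimates lie below 0 from D8 to D10, and Myh11 stands out from D10 to D28 at 5.62.

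Levels of different genes were set side by side only after division by exonic length, in equalized counts per kilobase. At D7 Smtn led with 658 ± 132 (SD, n = 3), then Acta2 with 283 ± 35.4, Myl9 with 144 ± 14.5 and Synpo2 with 11.3 ± 1.89. The ranges of these 4 did not overlap, and the other 6 genes had means under 5. At D28 Acta2 led with 693 ± 49.8 (SD, n = 3), Smtn followed with 335 ± 36.6 and Myl9 with 294 ± 52.8, the last pair with overlapping ranges. Myh11 stood at 84.8 ± 18.9 and Lmod1 at 9.70 ± 2.15, against 3.18 ± 0.49 and 2.96 ± 0.19 at D7. Synpo2, Tagln, Myocd, Actg2 and Cnn1 followed at D28 with means from 4.42 down to 1.71, each overlapping in range with the next. Smtn was above Acta2 at D7 and D10, Acta2 above Smtn at D28, and at D8 their ranges overlapped.

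**Figure D3:**
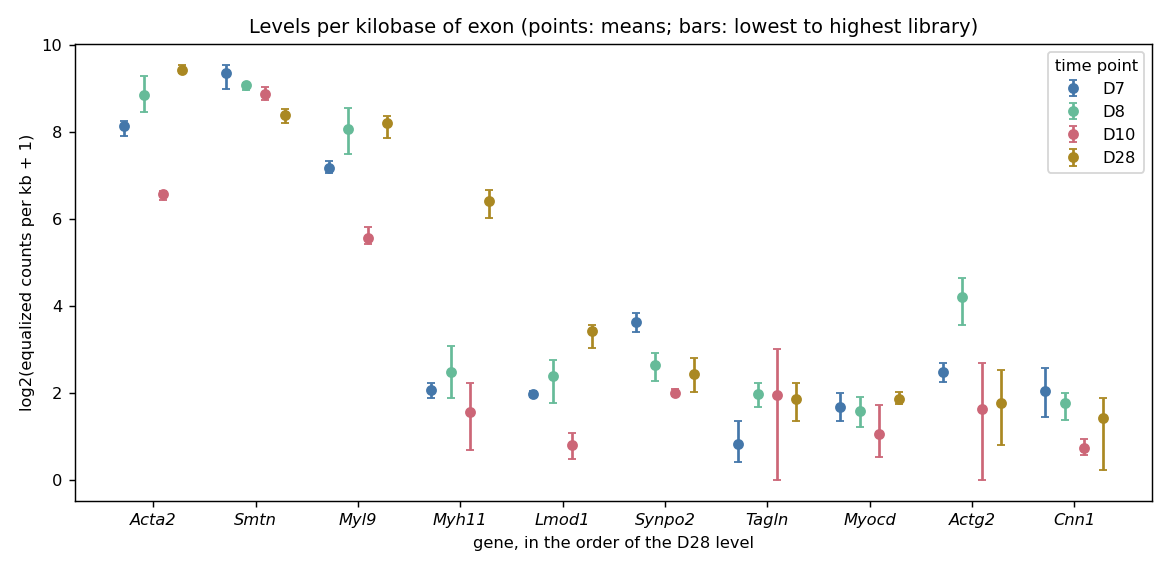
Level of each gene per kilobase of exon, as log2(equalized counts per kb + 1), by time point; points are means and bars run from the lowest to the highest of 3 libraries. Acta2, Smtn and Myl9 hold the highest levels, Myh11 is high at D28 (84.8 equalized counts per kb), and the remaining genes stay low.

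Serum response factor, its cofactors and other factors known to act on smooth muscle genes formed a list of 21, of which Tcf21 was at 0 in every library and 20 were tested. From D7 to D10, 2 rose and 2 fell, and from D10 to D28 again 2 rose and 2 fell. Srf averaged 8.94, 9.64, 9.88 and 9.11 at D7, D8, D10 and D28, so that it was highest at D10, where Acta2 was lowest. Its difference from D7 to D10 was 0.94 (SE 0.14, adjusted p = 4.83e-05), short of the fold for a call. Mrtfa (-0.33, SE 0.13, adjusted p = 0.0634) and Mrtfb (0.27, SE 0.16, adjusted p = 0.181) did not pass in that comparison.

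Tead, Yap, Elk, Prrx1, Barx1, Klf5 and Hey2 genes of the list were not called from D7 to D10. The log2 differences were -0.58 for Tead1 and -0.84 for Tead3, whose family binds CATTCC, and -0.42 for Yap1 and 0.15 for Wwtr1, their coactivators. For the ternary complex factors, which compete with Myocd for Srf, they were 0.13 for Elk1, -0.15 for Elk3 and 0.70 for Elk4. Prrx1 was at 0.51 and Barx1 at -0.88, and none of these 9 reached the fold for a call. Klf5, a zinc finger factor of proliferating smooth muscle, fell from D7 to D8 (-1.38, SE 0.22, adjusted p = 0.00048), and the Notch target Hey2, with a D7 mean of 1.28, rose by 2.49 (SE 0.81, adjusted p = 0.0389).

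Klf4, a zinc finger factor known to repress smooth muscle genes, rose from D7 to D10 by 1.44 (SE 0.17, adjusted p = 6.48e-06) and fell by 2.11 from D10 to D28 (SE 0.17, adjusted p = 5.98e-08). Acta2 had the opposite sign in both, but not from D7 to D8, where Klf4 was at 0.67 (SE 0.17, adjusted p = 0.0102) and Acta2 at 0.68. Foxf1, a forkhead factor of visceral smooth muscle, rose by 2.29 from D7 to D10 (SE 0.21, adjusted p = 4.57e-07). Mef2c, a MADS-box factor of muscle and hypertrophic cartilage, fell by 1.14 (SE 0.15, adjusted p = 2.97e-05) and then rose by 1.48 from D10 to D28 (SE 0.15, adjusted p = 1.08e-06). Nkx3-2, which is also a chondrocyte factor, fell by 1.44 (SE 0.35, adjusted p = 0.00406) and rose by 1.42 (SE 0.35, adjusted p = 0.00318). Gata6 fell by 1.32 from D10 to D28 (SE 0.25, adjusted p = 0.000378). From D7 to D28 only Foxf1 rose (1.43, SE 0.21, adjusted p = 5.68e-05) and only Foxf2 fell (-1.21, SE 0.27, adjusted p = 0.0024) among the 20.

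Other genes of the contractile apparatus, its kinase and phosphatase and its dense plaques formed a list of 35, with 34 tested. From D7 to D10, 13 fell and 2 rose, and from D10 to D28, 11 rose and 4 fell. Mylk, the myosin light chain kinase that acts on Myl9, averaged 10.56, 8.50, 6.68 and 11.67 at the 4 time points. It fell by 3.88 from D7 to D10 (SE 0.26, adjusted p = 2.42e-08), rose by 4.99 to D28 (SE 0.26, adjusted p = 5.13e-10) and ended 1.10 above D7 (SE 0.26, adjusted p = 0.00325). The fall of Mylk began at D8 (-2.06, SE 0.26, adjusted p = 5.81e-05), where the libraries of Acta2 and Myl9 lay above those of D7. Ldb3, a Z-disc protein, also fell from D7 to D10 (-3.54, SE 0.44, adjusted p = 1.27e-05). The 2 that rose were Pgm5, aciculin of dense plaques (3.69, SE 0.20, adjusted p = 3.53e-09), and Hspb1, a small heat shock protein that binds actin (1.27, SE 0.26, adjusted p = 0.000888). Pgm5 then fell by 1.29 from D10 to D28 (SE 0.20, adjusted p = 6.51e-05), opposite to Acta2 in both comparisons. From D7 to D8 it had risen already (2.37, SE 0.20, adjusted p = 2.31e-06), where the estimate of Acta2 was positive too.

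Aoc3, vascular adhesion protein 1 of smooth muscle and fat, averaged 7.73, 7.49, 3.92 and 11.76, and rose by 7.84 from D10 to D28 (SE 0.28, adjusted p = 1.03e-11). Npnt, the matrix protein nephronectin, and Itga8, the integrin chain of its receptor, were 4.09 (SE 0.59, adjusted p = 5.93e-05) and 3.68 (SE 0.28, adjusted p = 9.35e-08) above D7 at D28. In the other direction, Des, desmin, was -3.44 (SE 0.26, adjusted p = 6.49e-08), Csrp2, a LIM protein of smooth muscle, -3.46 (SE 0.13, adjusted p = 8.09e-11) and Ppp1r14a, the myosin phosphatase inhibitor CPI-17, -2.93 (SE 0.33, adjusted p = 4.94e-06) from D7 to D28. In all, 8 of the 34 rose and 11 fell in that comparison.

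Cytoskeletal and secreted genes known as targets of serum response factor with Mrtfa and Mrtfb formed a list of 18, all tested, of which 3 fell and 1 rose from D7 to D10. The focal adhesion gene Zyx rose by 2.14 (SE 0.22, adjusted p = 1.72e-06), whereas Amotl2 was -1.93 (SE 0.18, adjusted p = 6.39e-07) and Thbs1 -1.15 (SE 0.18, adjusted p = 9.3e-05). From D7 to D28, 0 rose and 2 fell, among them the integrin gene Itga5 at -1.48 (SE 0.15, adjusted p = 1.23e-06). Of 23 paralogs of the 10 genes, 13 fell and 2 rose from D7 to D10, and 7 fell and 1 rose from D7 to D28. Actg1, cytoplasmic gamma actin, rose by 1.40 from D7 to D10 (SE 0.18, adjusted p = 1.6e-05), the comparison in which Acta2 fell. Synpo, the paralog of Synpo2, fell (-1.80, SE 0.15, adjusted p = 1.68e-07), as did Smtnl2 (-1.89, SE 0.35, adjusted p = 0.000415), and Tmod2, a tropomodulin, was -1.59 from D7 to D28 (SE 0.26, adjusted p = 0.000187). Acta1, skeletal muscle actin, averaged 10.39, 9.03, 7.48 and 4.16 and was -6.23 at D28 against D7 (SE 0.59, adjusted p = 7.46e-07).

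Matrix and signalling genes known for myofibroblasts formed a list of 25, of which 16 fell and 0 rose from D7 to D10, and 6 rose and 5 fell from D10 to D28. Among the falls to D10 were Eln, elastin (-3.92, SE 0.19, adjusted p = 1.78e-09), Cthrc1 (-2.92, SE 0.20, adjusted p = 3.2e-08) and Postn, periostin (-2.60, SE 0.18, adjusted p = 3.39e-08). At D28 against D7, 3 were higher and 11 lower. The 3 were Tgfb3 (1.29, SE 0.19, adjusted p = 5.64e-05), the collagen-associated secreted protein gene Cthrc1 (1.16, SE 0.20, adjusted p = 0.000282) and Fap, fibroblast activation protein (1.13, SE 0.15, adjusted p = 1.83e-05). Eln (-7.44, SE 0.19, adjusted p = 1.7e-12), Tgfbi (-6.02, SE 0.18, adjusted p = 5.15e-12) and Col3a1 (-2.41, SE 0.29, adjusted p = 9.22e-06) fell.

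**Figure D4:**
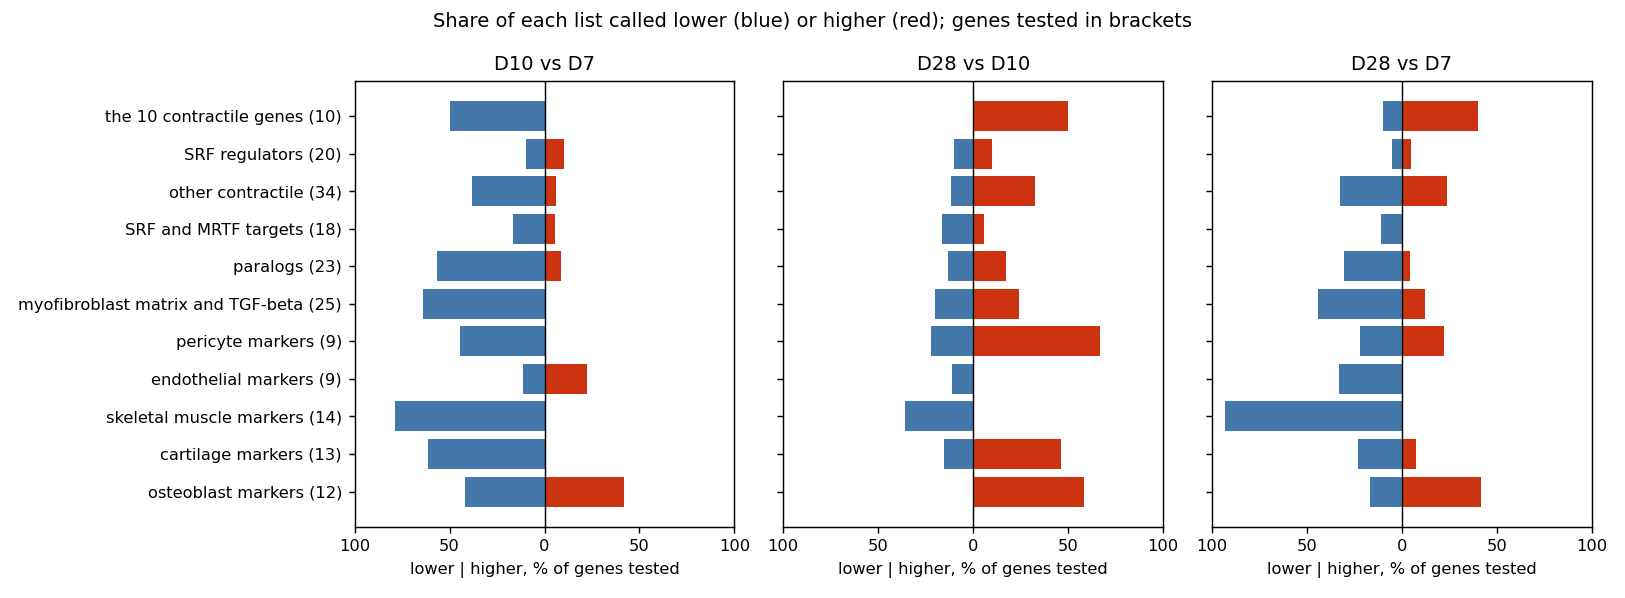
Share of each gene list called lower (left, blue) or higher (right, red), in percent of the genes tested (number in brackets), in 3 comparisons. Of the 10 contractile genes 5 were lower from D7 to D10 and 5 higher from D10 to D28, and 13 of 14 skeletal muscle markers were lower from D7 to D28.

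Markers of other cells that the pellets could hold moved beside these genes. Of 10 pericyte and mural cell markers 9 were tested. From D7 to D10, where Acta2, Myl9 and Lmod1 fell, 4 fell and 0 rose, among them Cox4i2 (-1.87, SE 0.16, adjusted p = 2.88e-07), Ndufa4l2 (-1.56, SE 0.19, adjusted p = 9.31e-06) and Notch3 (-1.34, SE 0.16, adjusted p = 9.59e-06). From D8 to D10, 3 fell and 0 rose, and from D10 to D28, where Acta2, Myl9, Lmod1 and Myh11 rose, 6 rose and 2 fell. Rgs5, a pericyte regulator of G protein signalling, averaged 6.40, 5.84, 5.67 and 10.49 and was 4.09 above D7 at D28 (SE 0.32, adjusted p = 1.23e-07). Abcc9 was 2.01 above D7 (SE 0.55, adjusted p = 0.00967), while Cspg4, the NG2 proteoglycan that cartilage also makes, was -2.17 (SE 0.15, adjusted p = 3.79e-08) and Anpep -1.92 (SE 0.29, adjusted p = 9.58e-05). The summed level of the list was 32786 to 43257 equalized counts at D7, 41976 to 51673 at D8, 27132 to 28985 at D10 and 31488 to 33005 at D28. Cspg4 had the highest mean of the list at D7 (14.19), D8 (14.73) and D10 (14.00), and so held a large part of these sums. Without Cspg4 the sum was 16988 to 22261 at D7, 16195 to 20276 at D8, 11119 to 12329 at D10 and 27473 to 28759 at D28. This reduced sum was lowest at D10 and highest at D28, whereas the sum of the full list had its highest median at D8 (44022). Most of the reduced sum at D28 was Ndufa4l2, with a mean of 14.04. Higd1b was at 0 in all libraries of D7 and of D10.

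Of 15 skeletal muscle markers 14 were tested, and 0 were called higher in any of the 5 comparisons. The number called lower was 7 from D7 to D8, 8 from D8 to D10, 11 from D7 to D10, 5 from D10 to D28 and 13 from D7 to D28. From D7 to D28 the sarcomere genes Ttn, titin, and Myh8, perinatal myosin, were -4.86 (SE 0.41, adjusted p = 2.4e-07) and -4.62 (SE 0.67, adjusted p = 5.43e-05). The summed level of the list was 4193 to 5397 equalized counts at D7, 1298 to 2089 at D8, 472 to 715 at D10 and 163 to 304 at D28, with Myf5, Pax7 and Tnnc2 at 0 in all D28 libraries. The summed level was thus lowest at D28, where Acta2, Myl9, Lmod1 and Myh11 were above D7. Of 10 endothelial markers 9 were tested, and they moved in both directions, with 3 higher and 1 lower from D7 to D8, 2 higher and 1 lower from D7 to D10, and 0 higher and 3 lower from D7 to D28. Vwf, von Willebrand factor, averaged 4.93, 7.76, 8.65 and 3.36 and rose by 3.72 from D7 to D10 (SE 0.52, adjusted p = 3.78e-05). Erg, an ETS factor that cartilage also expresses, averaged 10.32, 9.04, 8.17 and 8.67 and held most of the summed level of the list at D7. The summed level was 1236 to 1424 at D7, 812 to 998 at D8, 728 to 761 at D10 and 408 to 524 at D28, and without Erg it was 61 to 83, 278 to 461, 404 to 521 and 22 to 65. Of the defining genes, Pecam1 and Cdh5 are given here after their values were seen. Pecam1 averaged 3.12, 5.39, 3.97 and 2.66 and Cdh5 2.65, 4.29, 2.05 and 0.54. Both were highest at D8 (SD 0.89 and 1.41), whereas Vwf was highest at D10 and Erg at D7. The median log2 difference of the 9 from D7 to D8 was 1.64, and Sox17 was at 0 in all libraries of D7, D10 and D28. The part of any of these cells in the values of the contractile genes was not tested.

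Markers of cartilage and bone were measured in all libraries. Of 13 cartilage markers 8 fell and 0 rose from D7 to D10, and 6 rose and 2 fell from D10 to D28. The matrix genes Matn3 (-4.37, SE 0.20, adjusted p = 7.37e-10), Hapln1 (-2.13, SE 0.29, adjusted p = 2.49e-05) and Matn1 (-1.83, SE 0.28, adjusted p = 8.99e-05) fell from D7 to D10. From D7 to D28 Matn1 rose (1.04, SE 0.28, adjusted p = 0.00855) and Col10a1, the collagen of hypertrophic cartilage (-2.99, SE 0.44, adjusted p = 6.12e-05), Col9a1 (-1.72, SE 0.19, adjusted p = 3.3e-06) and Col11a1 (-1.22, SE 0.23, adjusted p = 0.000537) fell. Of 12 osteoblast markers 5 rose and 5 fell from D7 to D10, and 7 rose and 0 fell from D10 to D28. From D7 to D10 the mineralization genes Ibsp (-6.34, SE 0.29, adjusted p = 8.02e-10) and Alpl (-3.26, SE 0.25, adjusted p = 9.68e-08) and the receptor gene Pth1r (-2.86, SE 0.17, adjusted p = 8.37e-09) fell, while the osteocalcin genes Bglap2 (4.32, SE 0.39, adjusted p = 5.16e-07) and Bglap (3.25, SE 0.45, adjusted p = 3.53e-05) and the osteocyte gene Dmp1 (3.17, SE 0.46, adjusted p = 4.96e-05) rose. From D7 to D28 Bglap2 (5.87), Bglap (5.77) and Dmp1 (2.21) were higher and Ibsp (-1.49) and Col1a1 (-1.42) lower. No gene of either list was at 0 in all libraries of a time point. The fall at D10 and the rise at D28 of Acta2, Myl9 and Lmod1 stood beside more calls in the same direction than in the other among cartilage markers. This was not particular to cartilage, since it also held for the other contractile genes, the paralogs, the myofibroblast list and the pericyte markers. For osteoblast markers it held only from D10 to D28. The part of cartilage or bone cells in these values was not tested.

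Likeness of course was described by Pearson correlation over the 12 libraries, which share a normalization and group in 4 time points. Among 12180 genes with a mean of at least 5, the values most like those of Acta2 were of Psme2, a proteasome activator subunit (r = 0.969), Myl9 (0.965), Pradc1 (0.962), Rps4l, a ribosomal protein gene (0.957), and Ndn, necdin (0.957). Lmod1, whose mean is below that limit, reached 0.947. Among the other members, r with Acta2 was 0.783 for Myh11, 0.698 for Myocd, 0.388 for Actg2, 0.356 for Cnn1, 0.257 for Tagln, 0.254 for Synpo2 and -0.315 for Smtn. The genes most like Actg2 were Nelfb (0.911), Ctdnep1 (0.906), Ccdc134 (0.903), P4hb (0.885) and Krt80 (0.869), each with its highest mean at D8. Psme2 and Rps4l spanned less than Acta2, with means from 9.08 at D10 to 10.08 at D28 for Psme2 and from 8.87 to 9.63 for Rps4l.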

How the data were processed

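Transcripts of 12 pellet libraries were sequenced as paired 59-base reads. Reads were trimmed by the authors with Trimmomatic 0.36 and processed with HISAT2, Cufflinks and HTSeq to counts per gene, and the deposited unit is log2, the log2 of equalized counts plus 1. Replicates were not pooled. The supplementary methods name hg38, while the submitters' processing notes name GRCm38 and the table lists mouse symbols. The strand setting of HTSeq is not given in the sources used here.

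A gene was tested when 3 or more libraries reached a log2 value of 1, which left 17674 of 28244. The model in limma 3.58.1 (R 4.3.3) held 1 mean per time point, with a variance trend and 8 residual degrees of freedom, and p-values are two-sided and Benjamini-Hochberg adjusted over all genes tested. A call needs an adjusted p under 0.05 and a log2 fold change of at least 1. Read numbers are the rank of a value in its library's ordered levels, so counting intervals and the 3-read level cover counting error only. Exons and overlaps are from GENCODE M21 (GRCm38) and promoters from RefSeq. Python 3.11.15, pandas 2.3.3, numpy 2.4.6 and matplotlib 3.10.9 were used.

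All 10 members and the 21 regulators were named. From each other list at most 3 called genes in each direction at D10 and at D28 against D7 were named, by size, with a mean of at least 5, and the 5 genes most like Acta2 and Actg2. Pecam1 and Cdh5 were added outside this rule. The members and lists were chosen with earlier results of these data known. Alternatives covered filters, low values, scaling, the variance prior, the call rule, a replicate block and leaving out each library.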

Additional observations from a re-analysis of the deposited data

How the results depend on the processing

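With values under the 3-read level raised to it, the number of the 10 genes called was 2 from D7 to D8 (Actg2 beside Synpo2) and 3 from D7 to D10, where it had been 1 and 5. Over all 17674 genes the calls in that setting numbered 1077 and 2771, where they had been 1244 and 3340. The number of the 10 genes was 3 from D7 to D8 both with no fold threshold and by the study's rule of an unadjusted test, beside 3714 and 1492 of all 17674 genes. With a log2 fold change of at least 2 it was 0 from D7 to D8, 0 from D7 to D10 and 1 (Myh11) from D7 to D28. Leaving out each library in turn gave 1 to 2 calls from D7 to D8 (2 without D10 replicate 1), 4 to 6 from D8 to D10, 4 to 7 from D7 to D10, 4 to 6 from D10 to D28 and from D7 to D28, and 7 to 8 in the F test. Over all 17674 genes it gave, in the same order of comparisons, 1006 to 1337, 1381 to 1789, 3028 to 3464, 4554 to 4909 and 2805 to 3151 calls. Raising low values turned uncalled estimates of Tagln from D8 to D10 (0.29) and from D10 to D28 (-0.28) and of Actg2 from D10 to D28 (-0.062). Leaving out a library did so for Cnn1 (-0.57 to 0.099) and Myocd (-0.39 to 0.091) from D7 to D8, for Tagln from D8 to D10 (-1.76 to 0.20), from D7 to D10 (-0.25 to 1.71) and from D10 to D28 (-0.35 to 1.60), and for Actg2 from D10 to D28 (-0.23 to 1.40). No called estimate changed direction.

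Over all genes, calls without a fold threshold numbered 3714, 5096, 7288, 9259 and 6592 in D8 against D7, D10 against D8, D10 against D7, D28 against D10 and D28 against D7, where they had been 1244, 1708, 3340, 4854 and 3057. At a log2 fold change of at least 2 they numbered 388, 532, 1342, 2095 and 1356. Median-of-ratios scaling moved the median of all genes from D10 to D28 from -0.10 to 0.0075 and changed no count of members. A replicate block left the counts of the 10 genes at 1, 5, 5, 5 and 5. Over all genes it gave 1210, 1691, 3326, 4825 and 3030 calls. No difference shared by replicate number was seen, since 0 of 18 pairs with the same number correlated above 0.1 (-0.058 to 0.066). Whether the numbers pair the samples is not known from this. With a mean of at least 3 required, Tagln, Cnn1 and Actg2 were not tested. At D10 at least 1 library was at or under 3 reads for Tagln, Cnn1, Actg2, Lmod1, Myocd and Myh11, at D7 for Tagln and at D28 for Cnn1 and Actg2, which limits these values. The cause of each change was not tested.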
